A study of Mus musculus with 8 samples.

Results

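Nuclear hormone receptors are transcription factors whose genes were followed here in brown adipose tissue of mice with and without Prdm16, a zinc-finger protein that promotes the brown fat programme. The set was a list of 43 receptor gene symbols, and every non-control probe whose gene name on the array is one of them was taken, 64 probes in all. All 43 genes had a probe on the array, and 36 had one well above background and were tested, out of 21742 genes tested in the whole series. The other 7 were Nr1i2, Hnf4a, Hnf4g, Pgr, Nr4a3, Nr0b1 and Nr0b2, whose probes reached that level in at most 1 of 16 channel measurements. RNA was compared on 8 2-colour arrays, each carrying 1 Prdm16 knockout and 1 wild-type (WT) sample of the same age, 4 arrays from 11-month-old mice and 4 from 6-week-old mice. The groups were thus 11-month-old Prdm16 knockout, 11-month-old WT, 6-week-old Prdm16 knockout and 6-week-old WT tissue, and in each age 2 arrays had the dyes exchanged. The sources used here do not state the knockout allele or any Cre driver, the strain, the sex or the number of mice behind an RNA sample, so p-values measure the spread between arrays. Values are log2 ratios of knockout over WT, listed for arrays 1 to 4 of an age, and a gene was called when the limma fit across all genes gave an adjusted p below 0.05.

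Receptors of this class bind DNA through a pair of zinc fingers, most often at sites built on a short half-site, and many switch from repression to activation when a small lipid-soluble ligand displaces corepressors and recruits coactivators. Some act as partners of the retinoid X receptors, some as homodimers and some as monomers, and the orphan members have no established natural ligand. In brown fat, the PPARs, the thyroid hormone receptors and the estrogen-related receptors are known for driving lipid use, thermogenesis and mitochondrial gene expression, largely together with the PGC-1 coactivators.

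In each channel 61.2% to 68.2% of the spots were well above background, 0 spots were saturated, and the number of arrays limits the precision. The ages lay on separate slides read with different versions of the scanner software, so age and slide cannot be told apart in any difference between ages. The single Prdm16 probe gave log2 ratios of -0.96, -0.18, -0.44 and -0.42 at 11 months and -0.39, 0.06, -1.09 and -0.88 at 6 weeks, and it was called lower at both ages (fitted -0.50, SE 0.15, adjusted p = 0.0372, and -0.58, SE 0.15, adjusted p = 0.042). Since the deleted part is not stated, this probe may lie outside it and checks the labels only weakly. Of 10 brown adipocyte markers 7 were called lower in knockout tissue at 11 months and 0 at 6 weeks, with list medians of -2.25 and -0.10. Their summed level ranged from 16.1 to 18.4 in 11-month-old knockout tissue and from 20.2 to 20.7 in 11-month-old WT tissue (log2 intensity), and from 18.9 to 19.7 and from 19.4 to 19.9 in 6-week-old knockout and WT tissue. White adipocyte markers were called higher in 7 of 7 at 11 months and 5 of 7 at 6 weeks. Macrophage markers were higher in 7 of 10 and fibroblast markers in 7 of 9 at 11 months, and in 1 of 10 and 0 of 9 at 6 weeks. At 6 weeks 1 of the 10 macrophage markers, Lyz2, was lower (-0.29, SE 0.08, adjusted p = 0.0399). Endothelial markers were higher in 1 of 9 and lower in 0 at 11 months, and higher in 0 and lower in 3 at 6 weeks. Skeletal muscle markers swung between arrays, with medians of -0.50, -1.04, -0.27 and 1.72 at 11 months and 0.09, -2.70, 2.48 and -3.12 at 6 weeks, and 0 of 18 were called by limma. The part of these cell types in the receptor results was not tested, and in whole tissue fewer cells of a type and less RNA per cell cannot be told apart.

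At 11 months 13 of the 36 receptor genes were called, 7 higher and 6 lower in knockout tissue, a share of 36.1% beside 34.7% of all genes tested. Those higher were Rxra, Rara, Rora, Nr1h3, Nr2f1, Esr1 and Nr3c1, and those lower were Ppara, Rxrb, Nr2f6, Esrra, Esrrg and Nr4a2. At 6 weeks 9 were called, a share of 25% beside 16.2% of all genes, with Rora, Esr1, Esrrb and Esrrg higher and Nr1h2, Nr1h4, Vdr, Nr2f6 and Nr6a1 lower. The knockout effect differed between the ages for 6 genes, or 16.7% of those tested beside 18.2% of all genes. It was higher at 11 months than at 6 weeks for Rarg and Nr2f1, and lower for Esrra, Esrrb, Esrrg and Nr4a2. At 11 months the share of called receptor genes lay near that of the whole array, and the median fitted ratio of the 36 was -0.02 at 11 months and -0.04 at 6 weeks, beside 0.0082 and -0.0011 over all genes. Without 6-week-old arrays 2 and 4, whose skeletal muscle medians were below -2, 12 of the 36 were called at 11 months, 1 at 6 weeks and 1 between the ages, and the 1 was Esrrb both times. This setting was chosen after seeing the data and leaves 2 arrays of that age. It keeps 6-week-old array 3, whose skeletal muscle median was 2.48, and the part of muscle in these calls was not tested. The split at 6 weeks depended on the scaling, with 4 higher and 5 lower after loess, 2 and 5 from the scanner software's own ratios or the deposited value table, and 2 and 0 after median centring. The 6-week count also turned on single arrays, with 3, 5, 2 and 3 genes called without 6-week-old arrays 1, 2, 3 and 4 and 5 without 11-month-old array 2. Between the ages, the deposited value table gave 3 higher and 3 lower, and median centring 1 higher and 2 lower.

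At both ages 4 receptor genes were called, Rora and Esr1 higher, Nr2f6 lower, and Esrrg lower at 11 months but higher at 6 weeks. Another 9 were called at 11 months and not at 6 weeks, and 5 at 6 weeks and not at 11 months, which by itself does not show that those effects differed. Those are 11.1%, 25% and 13.9% of the 36, beside 8.88%, 25.8% and 7.31% of all genes tested. The fitted ratio had the same sign at both ages in 29 of the 36, or 80.6%, beside 60.9% of all genes.

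**Figure D1:**
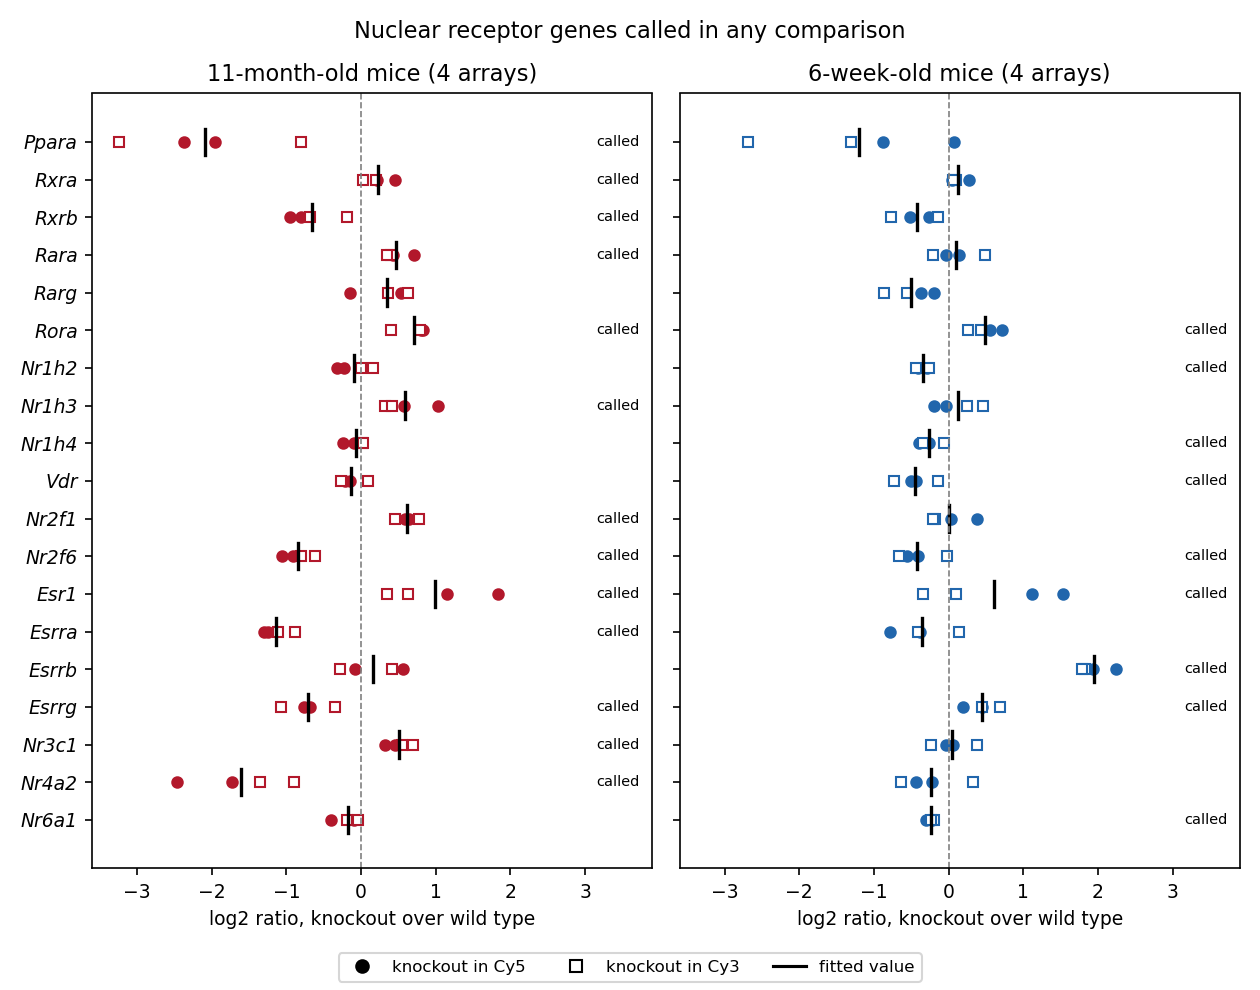
Log2 ratio of knockout over WT on each array for the 19 receptor genes called in any comparison, with 11-month-old mice on the left and 6-week-old mice on the right. Points are arrays, filled where the knockout sample was labelled with Cy5 and open where it was labelled with Cy3, and the black bar is the fitted value; Esrrb lies between 1.78 and 2.24 on all 4 arrays at 6 weeks and between -0.29 and 0.56 at 11 months.

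The estrogen-related receptors (ERRs) were the family with the most calls. They are orphan receptors that bind an extended half-site as monomers or dimers and act with PGC-1 coactivators on genes of mitochondrial energy metabolism. All 3 were tested, all 3 differed between the ages, and each showed another pattern. Esrra, which encodes the widely expressed ERR alpha, had log2 ratios of -1.25, -1.30, -1.11 and -0.88 at 11 months and -0.41, 0.14, -0.78 and -0.39 at 6 weeks. All 4 arrays of the older mice lay below all 4 of the younger. On the fitted scale it was -1.14 (SE 0.10, adjusted p = 0.000188) at 11 months, a level 2.2-fold lower in knockout tissue, and -0.36 (SE 0.10, adjusted p = 0.0521) at 6 weeks. The difference between ages was -0.78 (SE 0.15, adjusted p = 0.0122), called in 16 of 18 alternatives. On the intensity scale of its probe, Esrra stood at 13.7, 13.5, 13.8 and 14.1 in 11-month-old knockout tissue and at 14.9, 14.8, 14.9 and 15.0 in 11-month-old WT tissue (log2), so the genotypes did not overlap.

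Esrrg, which encodes ERR gamma, known for high expression in oxidative tissues, was lower in knockout tissue at 11 months and higher at 6 weeks. Its log2 ratios were -0.77, -0.68, -1.07 and -0.34 at 11 months and 0.45, 0.69, 0.19 and 0.44 at 6 weeks, with one sign on every array of an age. The fitted ratio was -0.72 (SE 0.12, adjusted p = 0.00257) at 11 months and 0.44 (SE 0.12, adjusted p = 0.0393) at 6 weeks, and the difference was -1.16 (SE 0.16, adjusted p = 0.00451). Its second kept probe gave -0.76 and 0.35. The call at 6 weeks ended when any of the 4 arrays of that age or 11-month-old array 1 or 2 was left out, with fitted ratios of 0.37 to 0.52 and adjusted p of 0.0621 to 0.146. It also ended with the scanner software's ratios (0.46, adjusted p = 0.626), with the deposited value table (0.46, adjusted p = 0.499), after median centring (0.59, adjusted p = 0.0983) and without 6-week-old arrays 2 and 4 (0.32, adjusted p = 0.338). The call at 11 months ended only under median centring among the 19 alternatives (adjusted p = 0.0581), and the difference was called in 14 of 18. In the same 4 settings the difference lay between -2.19 and -1.04 and was not called (adjusted p = 0.0584 to 0.0916). The scanner software's own ratios gave -1.73 at 11 months, a larger fall than after loess.

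Esrrb, which encodes ERR beta, best known for its role in embryonic stem cells and the inner ear, changed more at 6 weeks than any other receptor gene. Its log2 ratios were 0.56, -0.08, -0.29 and 0.42 at 11 months and 1.83, 1.78, 2.24 and 1.93 at 6 weeks. At 6 weeks the intensity lay between 10.2 and 10.8 in knockout tissue and between 8.2 and 8.9 in WT tissue (log2), with no overlap, whereas at 11 months the genotypes overlapped. Fitted values were 0.15 (SE 0.14, adjusted p = 0.426) at 11 months and 1.95 (SE 0.14, adjusted p = 0.000744) at 6 weeks, which is 3.85-fold. The difference between ages was -1.79 (SE 0.19, adjusted p = 0.0022). The 6-week call held in all 19 alternatives and the call for the difference in all 18, with values from -2.25 to -1.65.

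**Figure D2:**
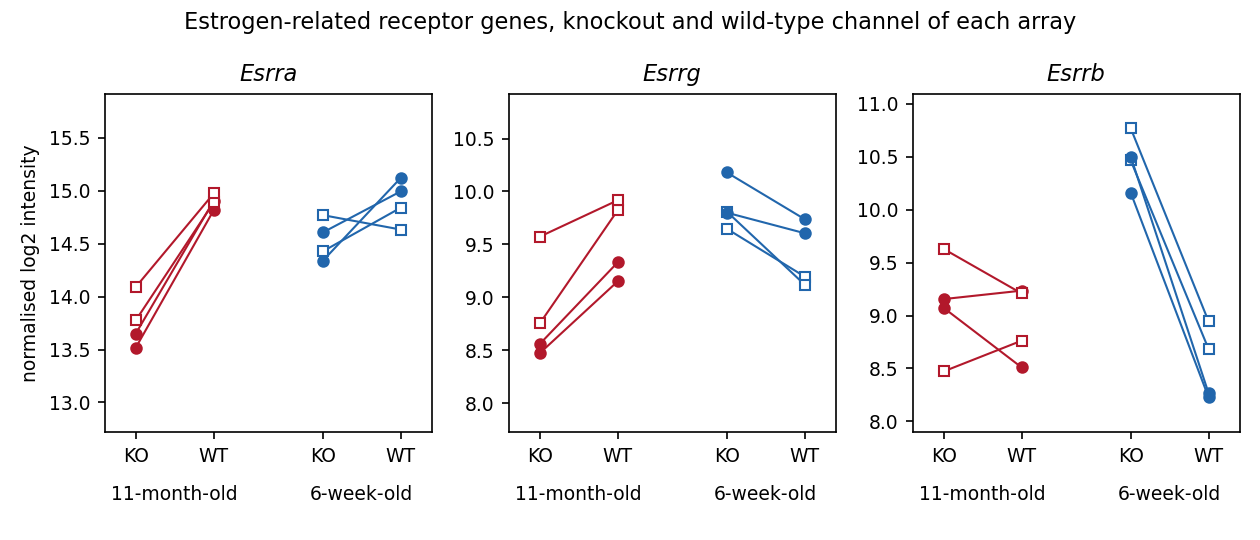
Normalised log2 intensity of Esrra, Esrrg and Esrrb in the knockout (KO) and WT channel of each array, 11-month-old mice at the left of each panel; lines join the channels of 1 array, filled circles mark arrays with the knockout sample in Cy5 and open squares those with it in Cy3. Esrra and Esrrg lines climb towards WT at 11 months, and all 4 Esrrb lines drop towards WT at 6 weeks.

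The bases just before the annotated starts of the ERR genes are shown because these genes differed between the ages in unlike ways, together with Nr4a2, which fell with Esrra and Esrrg at 11 months. Of the 43 receptor genes 40 had a promoter entry in the RefSeq table (build GRCm38.p6), with Hnf4g, Nr3c1 and Thra the exceptions. Each line gives 250 bases before a start, 5′ to 3′ on the gene's strand, and capitals mark GGTCA, the core of the receptor half-site, and TGACG, the half-site of the cyclic AMP response element, on either strand. The windows lie at chr19:6921809-6922058 (minus strand) for Esrra, at chr1:187608756-187609005 (plus strand) for the most upstream of 4 Esrrg starts, at chr12:86360867-86361116 and chr12:86421394-86421643 (plus strand) for the 2 Esrrb starts, and at chr2:57124004-57124253 (minus strand) for Nr4a2.
Esrra: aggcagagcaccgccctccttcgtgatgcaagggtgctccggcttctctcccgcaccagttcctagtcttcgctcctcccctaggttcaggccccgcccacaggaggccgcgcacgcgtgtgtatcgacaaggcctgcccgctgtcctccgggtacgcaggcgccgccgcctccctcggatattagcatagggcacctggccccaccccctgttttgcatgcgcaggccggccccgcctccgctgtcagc
Esrrg: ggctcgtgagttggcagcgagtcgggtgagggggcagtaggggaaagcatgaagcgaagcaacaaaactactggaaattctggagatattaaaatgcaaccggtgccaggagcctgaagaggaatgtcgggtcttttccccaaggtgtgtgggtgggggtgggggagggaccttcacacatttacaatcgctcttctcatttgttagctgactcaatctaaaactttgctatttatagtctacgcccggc
Esrrb, upstream start: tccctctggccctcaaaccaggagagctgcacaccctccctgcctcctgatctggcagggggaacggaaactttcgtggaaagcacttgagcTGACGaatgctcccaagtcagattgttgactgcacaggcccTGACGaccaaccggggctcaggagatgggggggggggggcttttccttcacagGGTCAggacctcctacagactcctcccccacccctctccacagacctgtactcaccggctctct
Esrrb, downstream start: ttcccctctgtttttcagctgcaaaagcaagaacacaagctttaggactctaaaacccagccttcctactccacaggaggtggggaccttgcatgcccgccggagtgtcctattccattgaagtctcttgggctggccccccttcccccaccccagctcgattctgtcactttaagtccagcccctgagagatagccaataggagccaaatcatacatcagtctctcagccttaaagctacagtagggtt
Nr4a2: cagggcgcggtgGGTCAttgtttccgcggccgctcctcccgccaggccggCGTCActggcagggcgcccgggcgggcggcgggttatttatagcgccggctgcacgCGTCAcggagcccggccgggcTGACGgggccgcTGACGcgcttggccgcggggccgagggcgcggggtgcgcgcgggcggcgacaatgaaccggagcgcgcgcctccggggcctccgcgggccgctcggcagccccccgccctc

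The upstream Esrrb window held 1 GGTCA and 2 TGACG, and the Nr4a2 window 1 GGTCA and 4 TGACG. Neither string occurred in the Esrra, Esrrg or downstream Esrrb windows. Over all 32851 windows of this length, 35.2% held GGTCA or its reverse complement TGACC and 17.8% held TGACG or CGTCA, against 23 and 12 of the 61 windows of the receptor genes (37.7% and 19.7%). The longer AGGTCA, which contains GGTCA, was in 18% of the receptor windows and 14% of all windows, and the extended ERR half-site TCAAGGTCA in 0 of 61 and 0.387%. These are descriptions of letters in a window and say nothing of binding.

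The NR4A receptors are orphan immediate-early genes that are rapidly induced by cyclic AMP, adrenergic and stress signals. Nr4a2 (Nurr1) had log2 ratios of -2.47, -1.73, -0.90 and -1.36 at 11 months and -0.64, 0.33, -0.22 and -0.43 at 6 weeks. Its probe stood at 9.4 in all 4 knockout samples of the older mice and at 11.8, 11.1, 10.3 and 10.8 in their WT partners (log2 intensity). The spread at 11 months thus lay in the WT channel. WT levels were higher on arrays 1 and 2, with knockout RNA in Cy5, than on arrays 3 and 4, with knockout RNA in Cy3. The fitted dye coefficient was -0.29, and the part of the dye in that spread was not tested. The fitted ratio of Nr4a2 was -1.62 (SE 0.20, adjusted p = 0.00075), 3.06-fold lower in knockout tissue, at 11 months and -0.24 (SE 0.20, adjusted p = 0.447) at 6 weeks, and the difference was -1.37 (SE 0.28, adjusted p = 0.0166). Without 6-week-old array 2 the difference was -1.26 (adjusted p = 0.0535). A second Nr4a2 probe gave -1.02 and -0.01. Nr4a1 (Nur77) ranged more widely across arrays than any other receptor gene, from -2.23 to 2.90 at 11 months and from -0.86 to 2.65 at 6 weeks, and was not called (adjusted p = 0.851 and 0.6). Nr4a3 was not above background. Of 16 tested NR4A partners and immediate-early genes, 1 was higher and 1 lower at 11 months, and 3 were higher and 1 lower at 6 weeks. Beside this and each later list stand all genes tested, of which 34.7% were called at 11 months and 16.2% at 6 weeks. For the difference between ages that share was 18.2%. Egr2, an immediate-early zinc-finger factor, was higher at 11 months (2.36, SE 0.40, adjusted p = 0.00332), and Pde4d, which degrades cyclic AMP, was lower (-1.21, SE 0.15, adjusted p = 0.00075). At 6 weeks Ier3 (1.37, SE 0.36) and Fosl2 (1.31, SE 0.25) were higher (adjusted p = 0.039 and 0.0145). Both calls ended without 6-week-old array 1, 2 or 3, and the 3 higher genes became 1, 0 and 0 without those arrays. Without arrays 2 and 4 together, 0 of the 16 were called at 6 weeks.

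**Figure D3:**
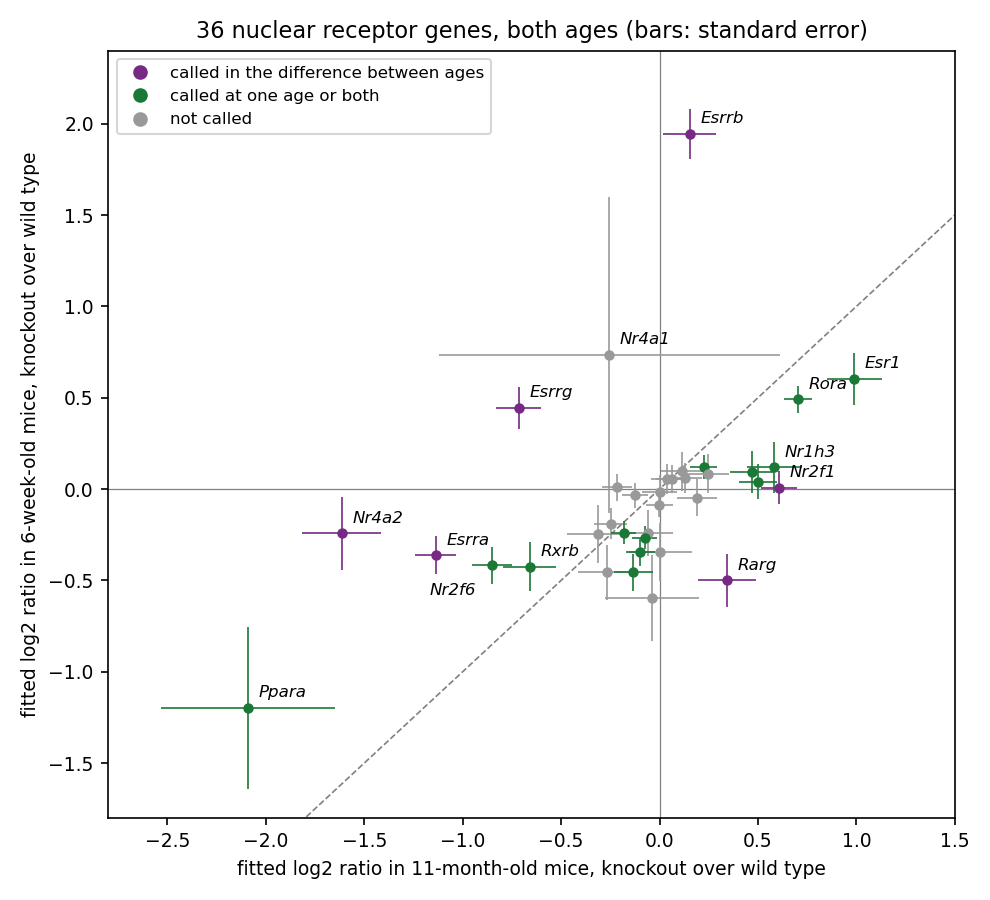
Fitted log2 ratio of knockout over WT at 11 months (horizontal axis) and at 6 weeks (vertical axis) for the 36 tested receptor genes, with bars of the standard error and a dashed line where both are equal. Esrrb stands far above the line, Esrra and Nr4a2 lie to its left, Esrrg has opposite signs, and most of the rest cluster near 0.

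The peroxisome proliferator-activated receptors (PPARs) bind fatty acids and their derivatives. Ppara, the family member tied to fatty acid oxidation and enriched in brown over white fat, was the receptor gene with the largest fall at 11 months. Its log2 ratios were -2.37, -1.96, -3.24 and -0.80 at 11 months and -2.69, -1.30, -0.88 and 0.08 at 6 weeks. Every older pair was below 0, and 3 of the 4 younger pairs were. The fitted ratio was -2.09 (SE 0.44, adjusted p = 0.00863), 4.26-fold lower, at 11 months and -1.20 (SE 0.44, adjusted p = 0.105) at 6 weeks, and the difference between ages was -0.89 (SE 0.63, adjusted p = 0.358). The other 2 Ppara probes gave -1.72 and -1.50 at 11 months and -1.13 and -0.97 at 6 weeks. Pparg, the master regulator of adipocyte differentiation, ran from -0.65 to 0.01 at 11 months and from -0.79 to 0.18 at 6 weeks and was not called (fitted -0.31 and -0.25, with 95% intervals of -0.68 to 0.06 and -0.62 to 0.12). Ppard was close to 0 on all arrays, from -0.10 to 0.14 and from -0.18 to 0.30.

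Of 30 tested PPAR target genes, 8 were higher and 10 lower at 11 months, 10 were higher and 0 lower at 6 weeks, and 3 were higher and 9 lower in the difference. The lower genes at 11 months held fatty acid oxidation genes: Fabp3, a fatty acid carrier (-3.37, SE 0.73), Cpt1b, which admits fatty acids to mitochondria (-2.74, SE 0.35), Acaa2, a thiolase (-2.50, SE 0.32), and Pdk4, which restrains glucose oxidation (-2.43, SE 0.41), with adjusted p of 0.00937, 0.000888, 0.000823 and 0.00293. The higher genes at 6 weeks included Plin2, a lipid droplet coat protein (1.21, SE 0.20, adjusted p = 0.0091), and Ehhadh of peroxisomal oxidation (0.96, SE 0.24, adjusted p = 0.0344). The list median was -0.03 at 11 months and 0.09 at 6 weeks. The 10 genes higher at 6 weeks became 4 after median centring and 6, 6, 5 and 6 without arrays 1, 2, 3 and 4 of that age. Without 6-week-old arrays 2 and 4 together, 2 of the 30 were higher at 6 weeks and the difference held 2 higher and 1 lower.

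The retinoid X receptors (RXRs) are the shared partners of the PPARs and of the retinoid, thyroid, vitamin D, liver X and farnesoid X receptors. Rxra and Rxrb were called in opposite directions at 11 months. Rxrb had log2 ratios of -0.95, -0.81, -0.69 and -0.19 at 11 months and -0.77, -0.14, -0.52 and -0.27 at 6 weeks, all 8 below 0, with fitted values of -0.66 (SE 0.13, adjusted p = 0.00709) and -0.43 (SE 0.13, adjusted p = 0.0675). Rxra had 0.46, 0.21, 0.03 and 0.20 at 11 months and 0.09, 0.06, 0.27 and 0.05 at 6 weeks, all above 0 and small, with fitted values of 0.22 (SE 0.07, adjusted p = 0.0358) and 0.12 (SE 0.07, adjusted p = 0.261). The Rxra call ended when any of 6-week-old arrays 2 and 3 or 11-month-old arrays 1, 2 and 4 was left out (fitted 0.16 to 0.26, adjusted p = 0.0528 to 0.159). It also ended without a dye coefficient, in the fit of that age alone, with a replicate block and without 6-week-old arrays 2 and 4. Thus it held in 10 of 19 alternatives. The 11-month call of Rxrb ended only after median centring (adjusted p = 0.0889). Rxrg stayed within -0.37 to 0.12 and -0.23 to 0.06 and was not called, and its second probe had the opposite sign at 6 weeks (0.22 against -0.03).

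Retinoic acid receptors sense the vitamin A metabolite retinoic acid. Rara was higher at 11 months on all 4 arrays (0.42, 0.70, 0.40 and 0.35) and mixed at 6 weeks (-0.21, 0.49, -0.04 and 0.14), with fitted values of 0.47 (SE 0.11, adjusted p = 0.0151) and 0.09 (SE 0.11, adjusted p = 0.612). Without 11-month-old array 2 it was 0.39 (adjusted p = 0.0818). Rarg was called only in the difference between ages. Its log2 ratios were -0.15, 0.53, 0.37 and 0.62 at 11 months and -0.87, -0.56, -0.37 and -0.20 at 6 weeks, which did not overlap. The fitted values were 0.34 (SE 0.15, adjusted p = 0.11) and -0.50 (SE 0.15, adjusted p = 0.0556), and the difference was 0.84 (SE 0.21, adjusted p = 0.0302). It fell short when any of 6 single arrays was left out, 6-week-old arrays 1, 2 and 3 and 11-month-old arrays 2, 3 and 4 (0.71 to 0.88, adjusted p = 0.0584 to 0.0887). It also fell short after median centring and without 6-week-old arrays 2 and 4 (adjusted p up to 0.116). Within an age, Rarg was called in 3 of 19 alternatives at 11 months and in 5 of 19 at 6 weeks. Rarb was not called (fitted -0.25, adjusted p = 0.0561, and -0.19, adjusted p = 0.169), but at 11 months 3 of 19 alternatives called it (adjusted p = 0.0237 to 0.0465). Of 14 retinoid targets and enzymes, 5 were higher and 2 lower at 11 months, and 3 were higher and 0 lower at 6 weeks. Rbp4, the retinol carrier, was higher at both ages (2.17, SE 0.28, adjusted p = 0.000873, and 1.26, SE 0.28, adjusted p = 0.0235), as was Dhrs3, which turns retinal back to retinol (1.04, SE 0.07, adjusted p = 5.74e-05, and 0.50, SE 0.07, adjusted p = 0.00508). Aldh1a1, a retinal dehydrogenase, was higher at 11 months (1.94, SE 0.20, adjusted p = 0.00034). At 6 weeks 0 of the 14 were called after median centring or without arrays 2 and 4, and 1 without array 1, 2 or 4 of that age. The 6-week call of Rbp4 ended in each of those settings and that of Dhrs3 in the first pair. At 11 months the 2 lower genes became 0 after median centring or without array 2 of that age.

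The liver X receptors sense oxysterols and the farnesoid X receptor bile acids. Nr1h3 (LXR alpha) was higher on all 4 arrays at 11 months (1.02, 0.57, 0.32 and 0.42), against 0.25, 0.46, -0.20 and -0.03 at 6 weeks. Its fitted ratio was 0.58 (SE 0.14, adjusted p = 0.0147) and 0.12 (SE 0.14, adjusted p = 0.596), and the first became 0.58 and 0.40 without 11-month-old array 2 and array 1 (adjusted p = 0.0544 and 0.0593). The 11-month call also ended after median centring (adjusted p = 0.0893). Nr1h2 (LXR beta) had -0.32, -0.22, -0.0035 and 0.16 at 11 months and was lower on all 4 arrays at 6 weeks (-0.43, -0.26, -0.40 and -0.29). Its fitted ratio was -0.10 (SE 0.07, adjusted p = 0.343) and -0.35 (SE 0.07, adjusted p = 0.0204), and the 6-week call was lost by leaving out array 1, 2 or 3 of that age (-0.36 to -0.28, adjusted p = 0.0662 to 0.0913) and after median centring (-0.11, adjusted p = 0.652). Nr1h4 (FXR) ran from -0.25 to 0.03 at 11 months and was -0.06, -0.35, -0.26 and -0.40 at 6 weeks, with fitted values of -0.07 (SE 0.06, adjusted p = 0.404) and -0.27 (SE 0.06, adjusted p = 0.0301). In 6-week-old knockout tissue its probe was well above background on 2 of 4 arrays, and the call ended without any of the 4 arrays of that age or 11-month-old array 2 (-0.32 to -0.20, adjusted p = 0.0519 to 0.112). Median centring and the fit without a dye coefficient ended it too (adjusted p = 0.0651 and 0.0541), as did the fit of that age alone (adjusted p = 0.0652). Of 17 tested LXR and FXR targets, 8 were higher and 4 lower at 11 months, and 8 were higher and 2 lower at 6 weeks, with medians of 0.22 and 0.47. Several were apolipoprotein genes. Apoe was higher at 11 months and lower at 6 weeks (1.43, SE 0.12, adjusted p = 0.000133, and -0.50, SE 0.12, adjusted p = 0.0294). Its 6-week call ended after median centring, without a dye coefficient, without array 1, 2 or 3 of that age and without arrays 2 and 4. In those settings the adjusted p was 0.0502 to 0.331. The difference between ages for Apoe was called in 18 of 18 alternatives. Apoc2 was higher at both ages (1.56, SE 0.15, adjusted p = 0.000204, and 2.79, SE 0.15, adjusted p = 0.000288), as was Apoc4 (0.74, SE 0.24, adjusted p = 0.0422, and 3.16, SE 0.24, adjusted p = 0.000754), while Apoc1 was lower at both (-1.30, SE 0.13, adjusted p = 0.000291, and -0.71, SE 0.13, adjusted p = 0.013). The 11-month call of Apoc4 held in only 9 of 19 alternatives (adjusted p = 0.0512 to 0.129 where it ended). The 6-week call of Apoc1 held in 15 of 19. The lipogenic genes Scd1 and Fasn rose at 6 weeks (2.28, SE 0.30, adjusted p = 0.00408, and 1.56, SE 0.33, adjusted p = 0.0198). Neither of these 2 calls held without 6-week-old arrays 2 and 4. Without 6-week-old arrays 2 and 4 the 6-week counts were 3 higher and 0 lower, and without array 1 of that age they were 5 and 0. At 11 months they were 6 and 1 after median centring, and 5 and 2 without array 1 or 2 of that age.

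The vitamin D receptor gene Vdr was called lower at 6 weeks. Its log2 ratios were -0.21, -0.15, 0.10 and -0.26 at 11 months and -0.15, -0.74, -0.51 and -0.43 at 6 weeks, with fitted values of -0.13 (SE 0.10, adjusted p = 0.344) and -0.46 (SE 0.10, adjusted p = 0.0229). Leaving out 6-week-old array 2, 3 or 4 ended that call (-0.48 to -0.33, adjusted p = 0.0613 to 0.081), as did median centring and the fit of that age alone (adjusted p = 0.0766 and 0.0507). Nr1i3 (CAR), a xenobiotic sensor best known from liver, was not called (0.13 and 0.06, adjusted p = 0.26 and 0.662), and Nr1i2 (PXR) was not above background. Of 12 tested targets of these receptors, 4 were higher and 2 lower at 11 months, and 0 were higher and 2 lower at 6 weeks. Cyp2b10, a classical CAR target in liver, was lower at both ages (-2.87, SE 0.48, adjusted p = 0.00306, and -2.94, SE 0.48, adjusted p = 0.00907), with Por, the reductase that serves cytochrome P450 enzymes, higher at 11 months (1.03, SE 0.12, adjusted p = 0.000569). The 6-week call of Cyp2b10 ended without 6-week-old arrays 2 and 4 (adjusted p = 0.0877), where 0 of the 12 were called. The 2 lower genes at 6 weeks became 1 without array 1, 2 or 4 of that age or the first array of the older mice, and 3 without 11-month-old array 4. At 11 months the 2 became 1 without array 1 or 4 of that age.

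The ROR and REV-ERB receptors activate and repress shared sites in clock and lipid genes. Rora was higher on all 8 arrays, with log2 ratios of 0.83, 0.80, 0.40 and 0.79 at 11 months and 0.26, 0.43, 0.72 and 0.56 at 6 weeks. The fitted ratio was 0.70 (SE 0.07, adjusted p = 0.00034) and 0.49 (SE 0.07, adjusted p = 0.00652), and no single array left out ended either call. At 6 weeks the call ended after median centring (0.61, adjusted p = 0.0564) and without arrays 2 and 4 of that age (0.49, adjusted p = 0.1). The REV-ERB genes Nr1d1 and Nr1d2 were not called, with ranges of -0.998 to 0.98 and -0.61 to 0.31 at 11 months and of -1.24 to 0.12 and -0.61 to 0.25 at 6 weeks, nor was Rorb (-0.47 to 0.19 and -0.49 to 0.04). Nr1d1 is known to overlap the 3′ end of Thra on the opposite strand. Of 16 clock partners of these receptors, 1 was higher and 4 lower at 11 months, and 2 were higher and 4 lower at 6 weeks. Hlf, a clock output factor, was lower at both ages (-0.70, SE 0.17, adjusted p = 0.0168, and -1.75, SE 0.17, adjusted p = 0.00172). Dbp and Tef, its relatives, were lower at 6 weeks (-1.38, SE 0.24, adjusted p = 0.0114, and -0.96, SE 0.09, adjusted p = 0.00172). Nfil3, a repressor of the same sites, was lower at 11 months (-1.04, SE 0.10, adjusted p = 0.000227) and higher at 6 weeks (0.40, SE 0.10, adjusted p = 0.0325), a difference of -1.45 (SE 0.14, adjusted p = 0.00168). The Nfil3 call at 6 weeks ended with the scanner software's ratios, without a dye coefficient, without the first array of the older mice, without array 1, 3 or 4 of the younger and without 6-week-old arrays 2 and 4 (adjusted p = 0.0524 to 0.298). The 6-week counts of the list became 1 higher and 2 lower without array 1, 0 and 3 without array 4, and 0 and 2 without arrays 2 and 4 of that age. The 1 higher gene at 11 months became 0 without 11-month-old array 1, 2 or 4 and 3 without array 3. No label states the time of day at which tissue was taken.

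Neither thyroid hormone receptor gene passed. Thra ran from -0.86 to 0.36 at 11 months and from -0.66 to -0.27 at 6 weeks, where it was below 0 on all 4 arrays (fitted -0.27, adjusted p = 0.206, and -0.46, adjusted p = 0.0743). It was called at 6 weeks in 5 of 19 alternatives. Thrb, the form tied to Ucp1 induction in brown fat, ran from -0.42 to 0.03 and from -0.34 to 0.41 (fitted -0.22, adjusted p = 0.0569, and 0.01, adjusted p = 0.944). At 11 months Thrb was called in 4 of 19 alternatives (adjusted p = 0.0123 to 0.0455). Of 13 thyroid hormone targets and enzymes, 2 were higher and 4 lower at 11 months, and 2 were higher and 0 lower at 6 weeks. The uncoupling protein gene Ucp1 (-4.05, SE 0.44, adjusted p = 0.000419), Dio2, which makes the active hormone in brown fat (-2.33, SE 0.47, adjusted p = 0.00676), and Gpd2, a mitochondrial glycerophosphate dehydrogenase (-1.86, SE 0.17, adjusted p = 0.000213), were lower at 11 months. Me1, the lipogenic malic enzyme, was higher at both ages (2.14, SE 0.45, adjusted p = 0.00829, and 2.28, SE 0.45, adjusted p = 0.0166). The Me1 call at 6 weeks ended without array 1 or 2 of that age or without arrays 2 and 4 (adjusted p = 0.0698 to 0.135), and in each of these settings 0 of the 13 were called. It was 1 without array 3 or 4 of the younger mice or array 2 of the older.

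Among the steroid receptors, the estrogen receptor gene Esr1 was called higher at both ages. Its log2 ratios were 1.15, 1.84, 0.63 and 0.35 at 11 months and 0.10, -0.34, 1.53 and 1.12 at 6 weeks. At each age the arrays with knockout RNA in Cy5 stood above those with knockout RNA in Cy3, and the fitted dye coefficient was 0.61, so the fitted ratio rests on the balance of the dyes. It was 0.99 (SE 0.14, adjusted p = 0.00143) at 11 months and 0.60 (SE 0.14, adjusted p = 0.0279) at 6 weeks. Without a dye coefficient the adjusted p was 0.0507 at 11 months and 0.274 at 6 weeks, and the call at 6 weeks was lost by leaving out array 1, 3 or 4 of that age (0.48 to 0.64, adjusted p = 0.0669 to 0.121). At 6 weeks it also ended with the scanner software's ratios (0.64, adjusted p = 0.114), with the deposited value table (0.62, adjusted p = 0.0824) and without 6-week-old arrays 2 and 4 (0.82, adjusted p = 0.0906). Other Esr1 probes gave 0.62 and 0.08 at 11 months and 0.61 and 0.22 at 6 weeks. The brightest Esr1 probe was printed 10 times on each array, and the SD over its spots was 0.027 to 0.066 of a log2 unit, far below the spread between arrays. Esr2 stayed within -0.10 to 0.09 and -0.32 to 0.11 and was not called.

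The glucocorticoid receptor gene Nr3c1 was higher on all 4 arrays at 11 months (0.46, 0.31, 0.69 and 0.55), against -0.23, 0.38, 0.06 and -0.04 at 6 weeks. Its fitted ratio was 0.50 (SE 0.10, adjusted p = 0.00556) and 0.04 (SE 0.10, adjusted p = 0.806), and the difference between ages was 0.46 (SE 0.14, adjusted p = 0.0537). A second probe gave 0.21 and 0.15. The mineralocorticoid receptor gene Nr3c2 was near 0 at both ages (0.00071 and -0.016), and the progesterone receptor gene Pgr was not above background. Of 16 glucocorticoid and mineralocorticoid targets and enzymes, 5 were higher and 2 lower at 11 months, and 1 was higher and 0 lower at 6 weeks. Tsc22d3 (Gilz), a classical glucocorticoid target, was higher at 11 months (1.19, SE 0.22, adjusted p = 0.00422), while the phosphatase gene Dusp1 was lower (-0.95, SE 0.22, adjusted p = 0.013). The 5 higher genes at 11 months became 2 without array 1 and 3 without array 3 of that age. The 1 at 6 weeks became 0 after median centring or without array 1, 2 or 3 of that age. It was also 0 without arrays 2 and 4 together, and 2 without array 4 alone. Of 10 estrogen and progesterone targets and enzymes, 2 were higher at 11 months, Igfbp4 (2.20, SE 0.11, adjusted p = 2.14e-05) and Xbp1 (2.02, SE 0.25, adjusted p = 0.000777), and 5 at 6 weeks, with 0 lower at either age. At 6 weeks 0 of the 10 were called after median centring, without array 1 of that age or without arrays 2 and 4, and 2 to 3 without any of the other arrays except 11-month-old array 4. At 11 months 4 were higher without array 4 of that age.

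The COUP transcription factors are orphan receptors that mostly repress and compete for half-sites with other receptors. Nr2f1 (COUP-TFI) was higher on all 4 arrays at 11 months (0.58, 0.63, 0.77 and 0.45) and lay on both sides of 0 at 6 weeks (-0.18, -0.21, 0.39 and 0.03), without overlap between the ages. Fitted values were 0.61 (SE 0.09, adjusted p = 0.00185) and 0.0081 (SE 0.09, adjusted p = 0.963), and the difference was 0.60 (SE 0.13, adjusted p = 0.0193). That difference was 0.55 and 0.57 without 6-week-old array 2 and array 4 (adjusted p = 0.0608 and 0.0568). Nr2f6 (EAR2) was lower on all 8 arrays, at -1.06, -0.91, -0.80 and -0.62 at 11 months and -0.67, -0.03, -0.56 and -0.41 at 6 weeks. Its fitted ratio was -0.85 (SE 0.10, adjusted p = 0.000619) and -0.42 (SE 0.10, adjusted p = 0.0309), and leaving out 6-week-old array 1, 3 or 4, or array 2 of the older mice, ended the 6-week call (-0.46 to -0.28, adjusted p = 0.0554 to 0.105). That call also ended after median centring (-0.18, adjusted p = 0.528), in the fit of that age alone (adjusted p = 0.0735) and without 6-week-old arrays 2 and 4 (-0.61, adjusted p = 0.0633). Nr2f2 and the testicular receptor genes Nr2c1 and Nr2c2 were not called, with fitted values of 0.06 to 0.19 at 11 months and -0.05 to 0.10 at 6 weeks, and the 2 Nr2c1 probes had opposite signs at both ages.

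Of the remaining tested genes, Nr5a2 (LRH-1), a regulator of steroid and bile acid synthesis, was not called (0.25 and 0.09, adjusted p = 0.118 and 0.631). At 11 months it was called higher with the scanner software's ratios and the deposited value table (adjusted p = 0.00367 to 0.0473). Its fitted ratio there ran from 0.15 to 1.15 over the 19 alternatives. In 11-month-old WT tissue the Nr5a2 probe was well above background on only 2 of 4 arrays. Nr6a1 (GCNF), an embryonic and germ cell repressor, had -0.40, -0.10, -0.04 and -0.19 at 11 months and -0.19, -0.23, -0.31 and -0.22 at 6 weeks. Its probe was not well above background in any 6-week-old knockout sample and was so in 3 of 4 WT samples. Mean levels at 6 weeks were 6.78 in knockout and 7.02 in WT tissue (log2 intensity). With the lowest signal well above background on each array, they gave an estimate of 1.17-fold lower in knockout tissue. The fitted ratio was -0.24, with a 95% interval of -0.39 to -0.09, so a smaller fall is not excluded and the estimate is no lower limit. The limma fit called Nr6a1 lower at 6 weeks (adjusted p = 0.0414). That call ended without any of the 4 arrays of that age or 11-month-old array 2 (adjusted p = 0.0532 to 0.136). It also ended after median centring (adjusted p = 0.0535) and without a dye coefficient (adjusted p = 0.0553). At 11 months Nr6a1 was not called (adjusted p = 0.0605). It was called lower there with the scanner software's ratios and the deposited value table (adjusted p = 0.00935 to 0.0202). The fitted ratio ran from -0.88 to -0.11 over the 19 alternatives.

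Coregulators dock on nuclear receptors and set their output. Of 27 tested, 6 were higher and 7 lower at 11 months, and 1 was higher and 3 lower at 6 weeks, with medians of -0.03 and -0.02. Over all genes tested, 34.7% were called at 11 months and 16.2% at 6 weeks. Ppargc1b, a PGC-1 coactivator, was lower at both ages (-1.76, SE 0.14, adjusted p = 0.000121, and -0.83, SE 0.14, adjusted p = 0.0109). Ppargc1a, its cold-inducible relative, was lower at 11 months (-1.44, SE 0.16, adjusted p = 0.000478) and had -0.20 at 6 weeks (adjusted p = 0.432), a difference of -1.24 (SE 0.23, adjusted p = 0.0114). Nrip1 (RIP140), a corepressor that restrains oxidative genes in fat, was higher at both ages (2.15, SE 0.23, adjusted p = 0.000353, and 1.21, SE 0.23, adjusted p = 0.0139). Smarcd3, a chromatin remodelling subunit, was lower at both ages (-0.46, SE 0.12, adjusted p = 0.0232, and -0.61, SE 0.12, adjusted p = 0.0181), and Ncoa3, a p160 coactivator, at 6 weeks (-0.41, SE 0.06, adjusted p = 0.00554). Tbl1x, an exchange factor of corepressor complexes, was higher at 11 months than at 6 weeks relative to WT (difference 0.67, SE 0.10, adjusted p = 0.00541). At 11 months the 7 lower genes became 2, 3 and 4 without arrays 1, 2 and 3 of that age and 3 after median centring, and the 6 higher became 3 without array 2. At 6 weeks the 3 lower genes became 0 after median centring or without arrays 2 and 4 of that age, and 2 lower with 0 higher without array 1, 2 or 3. The 6-week call of Ppargc1b ended in the first pair of those settings and with the scanner software's ratios or the deposited table (adjusted p = 0.0502 to 0.088). Smarcd3 lost its 6-week call in those first settings and without array 1, 2 or 3 of that age, and its 11-month call after median centring, without a dye coefficient, and without 11-month-old array 1, 2 or 3.

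Of 21 ERR target genes, 19 were lower and 0 higher at 11 months, 5 were lower and 0 higher at 6 weeks, and 16 were lower and 0 higher in the difference. The list median was -1.16 at 11 months and -0.33 at 6 weeks, beside 0.0082 and -0.0011 over all genes. Per array the medians were -1.09, -1.32, -1.51 and -0.94 at 11 months and -0.88, -0.36, -0.19 and -0.12 at 6 weeks, so the ages did not overlap. Ogdh of the tricarboxylic acid cycle (-1.95, SE 0.22, adjusted p = 0.000436), Uqcrc1 of respiratory complex III (-1.71, SE 0.17, adjusted p = 0.000257), and Perm1, a PGC-1 and ERR-induced muscle regulator (-2.05, SE 0.23, adjusted p = 0.000495), were among those that fell at 11 months. Perm1 was also the lowest at 6 weeks among those called (-1.42, SE 0.23, adjusted p = 0.00907), and for Cycs, which encodes cytochrome c, the difference between ages was -1.42 (SE 0.16, adjusted p = 0.00233). The 2 targets not called at 11 months were Slc25a4 (-0.56) and Ckmt2, a muscle creatine kinase (-0.04). The 11-month count stayed between 18 and 20 across 19 alternatives. Between the ages it was 2 under median centring and 2 without 6-week-old arrays 2 and 4, and 0 of the 21 were called at 6 weeks without those arrays or from the scanner software's ratios. The 5 lower genes at 6 weeks became 1 after median centring, 1 to 2 without any array of that age, and 2, 3 and 8 without 11-month-old arrays 1, 2 and 4. These genes belong to the same tissue in which 7 of 10 brown adipocyte markers fell at 11 months, and the part of that change in the list was not tested.

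**Figure D4:**
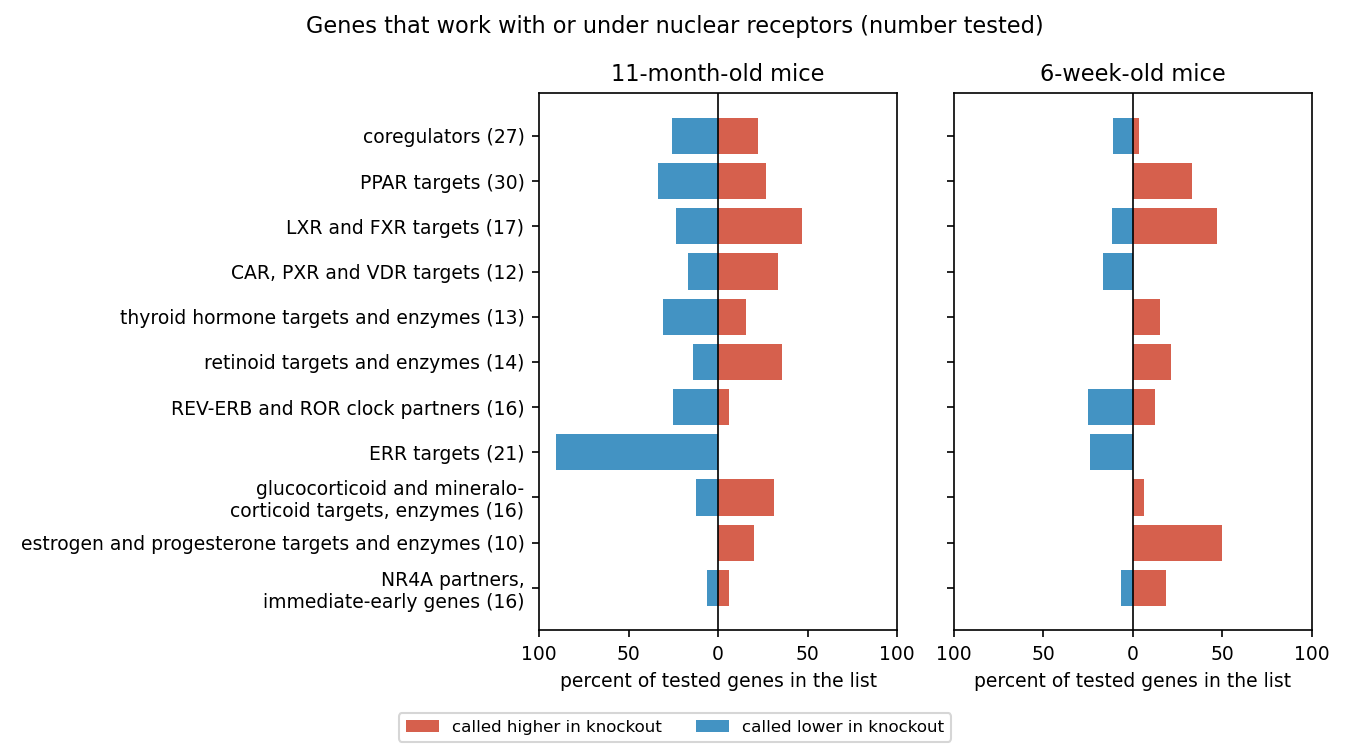
Share of the tested genes of each list called higher (right, red) or lower (left, blue) in knockout tissue at 11 months (left panel) and 6 weeks (right panel), with the number tested in brackets. The ERR target bar reaches furthest left at 11 months, 19 of 21 genes, against 5 of 21 at 6 weeks. Over all genes tested, 34.7% were called in either direction at 11 months and 16.2% at 6 weeks.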

How the data were processed

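Brown adipose RNA of Prdm16 knockout and WT mice was hybridised in pairs to 8 2-colour arrays. The deposited scanner files hold a mean foreground and a median local background intensity per spot and dye, written by Agilent Feature Extraction per the file headers (version 10.10.1.1 at 11 months and 10.5.1.1 at 6 weeks, probe annotation on mm9). Per the file headers the same software made the deposited log10 ratio of red over green from background-subtracted, dye-normalised signals. The deposited value table holds log2 ratios, matched by running spot number, with a correlation of 0.88 to 0.978 to the ratios computed here; limma is named in the submitters' processing notes, with no settings.

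Intensities were background-corrected (normexp, offset 50) and loess-normalised within each array with limma 3.58.1 in R 4.3.3 (with the data.table package, 1.17.8), control and outlier spots left out (131 to 247 per array), and turned to log2 knockout over WT. Spots printed for the same probe were averaged. Of 39429 probes, 26853 were well above background in at least 4 of 16 channel measurements and had values on at least 3 arrays of each age. The brightest probe stood for a gene. One model with a coefficient per age and a shared dye coefficient (5 residual degrees of freedom) was fitted to 21742 genes, with Benjamini-Hochberg adjustment over all of them and a threshold of 0.05. Channel levels are after loess and Aquantile scaling. RefSeq symbols replaced array names for 14810 genes. All tested receptor genes are named. From each list up to 4 called genes with the largest absolute change in a comparison are named; Slc25a4 and Ckmt2 were named after their values were seen. Some genes that this rule would name are not reported here. The receptor genes, lists and tests were chosen with earlier results of these data known. The code was tested on simulated data. Alternatives were the scanner software's ratios, the deposited table, median centring, other probe filters and summaries, other dye terms, each age alone, a replicate block and each array left out. Figures used Python 3.11.15, pandas 2.3.3 and matplotlib 3.10.9.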

Additional observations from a re-analysis of the deposited data

Results flagged for a closer look

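In 2 of 72 sets of 4 arrays 1 array stood far from the other 3, and chance gives about 1 in 20 such sets. Rora had a log2 ratio of 0.40 on 11-month-old array 3, with the other 3 between 0.79 and 0.83. Nr1i3 stood at -0.24 on 6-week-old array 2, with the other 3 between 0.14 and 0.19.

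The knockout effect differed between the ages in limma's test of the difference for 6 receptor genes. On the log2 scale, 11 months minus 6 weeks, it was 0.84 for Rarg, 0.60 for Nr2f1, -0.78 for Esrra, -1.79 for Esrrb, -1.16 for Esrrg and -1.37 for Nr4a2. Age and slide cannot be told apart in these differences.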

How the results depend on the processing

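The 13 receptor genes called at 11 months became 10 to 17 under the alternatives, and none of the called receptor values changed sign. At 6 weeks, 9 became 2 after median centring, 15 with the replicate block and 2 to 13 with 1 array left out. It was 1 without 6-week-old arrays 2 and 4, an alternative chosen after seeing the data that leaves 2 arrays of that age. Between the ages, 6 became 3 after median centring, 1 without those arrays and 5 to 6 with 1 array left out. Deviations of same-numbered arrays of the 2 ages from their group means correlated at -0.20 to -0.06, at 0.17 to 0.46 after the shared dye coefficient was removed, and at -0.06 to 0.09 after a dye coefficient per age was removed. Since this turned on the dye, the numbers were not taken to pair the arrays; the replicate block gave 16 calls at 11 months and 9 between the ages. Over all genes, calls at 6 weeks were 3520, against 948 after median centring, 2278 from the scanner's ratios, and 1238 to 4278 with 1 array left out. The cause of these shifts was not tested. With no filter on dim probes, Nr0b1, below background on all arrays, was called at 11 months (-0.24, SE 0.05, adjusted p = 0.0152). Signal over background limits Nr6a1 and Nr1h4 at 6 weeks and Nr5a2 at 11 months.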
